A study of Mus musculus with 18 samples.

Results

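The genes described here are 50 genes of mitosis, chosen by name for their roles between the end of G2 and the parting of the daughter cells. All 50 symbols were rows of the deposited table of 31787 genes, and all 50 were among the 21050 genes that passed the filter on low counts. Of the 50 members, 8 had fewer than 10 reads in at least 1 healthy kidney (the lowest was 1 read, for Cdc25c) and passed through kidneys in which they were higher. They were read in total RNA from a piece of each of 18 mouse kidneys after unilateral ureteral obstruction (UUO, in which a ureter is tied and the kidney above it is injured and scars) or without it, in 6 groups of 3. The healthy kidneys came from Cre-negative mice with floxed Twist alleles of the Cdh5-CreERT2;Twist line. The contralateral kidneys (opposite the tied ureter) and the WT UUO kidneys each came from 2 Cre-positive mice without floxed alleles and, as replicate 3, 1 Cre-negative floxed mouse of that line. Twist cKO UUO and Snail cKO UUO kidneys were Cre-positive and floxed for Twist or Snail under Cdh5-CreERT2, a Cre of endothelial cells whose activity depends on tamoxifen. Myc cKO UUO kidneys were Cre-positive and floxed for Myc under GGT-Cre, a Cre of tubular epithelium. All mice were 12 weeks old, or 11 to 12 weeks in the Myc line. Their strain was C57BL6 mixed with 129sv and with Balb/c for the Twist line, but C57BL6 with Balb/c alone for the lines of Snail and Myc, whose knockout and strain cannot be told apart. The labels do not give the days of obstruction. They also do not tie kidneys to animals, and each p-value then measures only how far these samples spread, which may be technical.

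Mitosis is driven by Cdk1 bound to cyclins A and B. Plk1 and the Aurora kinases build the spindle, the kinetochore binds its microtubules, and the checkpoint holds the ubiquitin ligase APC/C until every chromosome is attached. The transcripts of these proteins are low in resting cells and climb together in G2, so their level in a tissue is widely used as a reading of how many cells divide. Tubular cells of an adult kidney rarely divide, while injury brings tubular cells, fibroblasts and immune cells into the cycle. In RNA of bulk tissue, more dividing cells and more mitotic RNA in each cell cannot be told apart.

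Total counts lay between 52.6 and 91.3 M per library, and levels are given as CPM (counts per 1 M counts, after TMM scaling). Mitochondrial ribosomal RNA held 44.6 to 50.3% of the counts in healthy and contralateral kidneys and less in obstructed kidneys, with 19.2 to 20.3% in WT UUO, 24.1 to 29.9% in Twist, 23.7 to 26.0% in Snail and 25.4 to 34.9% in Myc cKO UUO. Every knockout library thus held a larger share than every WT UUO library. With mitochondrially encoded genes removed, 31, 0 and 9 members passed the threshold (edgeR adjusted p under 0.05) against WT UUO, in place of 32, 0 and 10. These counts are for the Twist, Snail and Myc knockouts in turn. The part of this share in the comparisons with WT UUO was not tested further. The proximal tubule markers of a kidney were present, at 10545 CPM or more in sum in every healthy library. Of the targeted genes, Twist1 was 2.13, 4.49 and 1.14 CPM in WT UUO and 0.378, 0.596 and 0.307 CPM in Twist cKO UUO kidneys (-2.59 ± 0.49, log2 ± SE; adjusted p = 0.0172). Snai1 in Snail cKO UUO (-0.61 ± 0.38, adjusted p = 0.487) and Myc in Myc cKO UUO (-0.45 ± 0.23, adjusted p = 0.217) did not pass the threshold against WT UUO in this bulk RNA. Myc cKO UUO replicate 3 stood apart in its group, with 10.8 CPM of Myc and 666 CPM of fibroblast markers, against 1652 CPM or more of these markers in the other two.

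Many of the members hold promoter motifs that played no part in choosing them. The stretches below lie at the RefSeq starts of 7 members (GRCm38.p6) and are shown because the first 4 rose with obstruction and the last 3 fell. That of Pttg1 lies inside the gene as GENCODE places it, with a start at 43426251 on the minus strand. Capitals mark TTTGAA or its reverse complement TTCAAA, the core of the cell cycle homology region (CHR) through which DREAM and MuvB complexes are known to act on genes of G2 and mitosis, and CCAAT or ATTGG, the box bound by NF-Y.
Cdk1 (chr10:69352913-69353012, minus strand): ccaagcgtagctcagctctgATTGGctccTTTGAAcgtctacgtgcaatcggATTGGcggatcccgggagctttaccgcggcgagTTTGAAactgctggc
Cdc20 (chr4:118437344-118437443, minus strand): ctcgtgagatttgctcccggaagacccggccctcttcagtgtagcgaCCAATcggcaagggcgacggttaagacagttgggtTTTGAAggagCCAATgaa
Top2a (chr11:99024190-99024289, minus strand): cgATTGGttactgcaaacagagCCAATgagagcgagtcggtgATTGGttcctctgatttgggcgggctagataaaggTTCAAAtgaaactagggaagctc
Prc1 (chr7:80294361-80294460, plus strand): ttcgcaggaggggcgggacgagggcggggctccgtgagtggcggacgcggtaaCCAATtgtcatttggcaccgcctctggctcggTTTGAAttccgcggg
Spc25 (chr2:69206184-69206283, minus strand): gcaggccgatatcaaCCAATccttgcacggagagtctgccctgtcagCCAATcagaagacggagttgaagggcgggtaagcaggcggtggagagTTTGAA
Cks2 (chr13:51645132-51645231, plus strand): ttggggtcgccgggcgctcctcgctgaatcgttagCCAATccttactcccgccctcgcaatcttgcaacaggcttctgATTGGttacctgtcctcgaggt
Pttg1 (chr11:43425982-43426081, minus strand): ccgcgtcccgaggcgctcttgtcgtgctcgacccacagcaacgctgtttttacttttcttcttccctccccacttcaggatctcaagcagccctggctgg

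A promoter entry, 250 bases before to 50 after the start, was found for 41 of the 50 members and for 27025 genes in all. TTTGAA on either strand occurred in 30 of the 41 members (73.2%), against 18.1% of all promoters, and within 60 bases before the start or after it in 28 members (68.3%) against 5.46%. CCAAT on either strand occurred in 31 members (75.6%) against 37.9%, and both motifs together in 26 (63.4%) against 7.12%. At least 2 CCAAT boxes were found in 20 members (48.8%) against 12.2% of all promoters. The E2F motif TTTCCCGC, on either strand, was found in 1 member (2.44%) against 1.11%. Counted from the start base as 0, TTTGAA began at -15 in Cdk1, -18 in Cdc20 and -5 in Prc1, and its reverse complement at -23 in Top2a. In Spc25 it began 24 bases after the start. The Pttg1 window lay wholly within the gene as GENCODE places it, as did those of Kif2c, Cdca8, Cdca3 and Kif4. For these genes the bases before the GENCODE start were not searched, and the shares above include their windows. The windows of Cks2 and Pttg1 held no TTTGAA. Nor did those of Bub1, Ccnb1, Birc5, Cenpe, Cenpk, Mad2l1, Ncaph, Nuf2 and Nusap1, of which all but Nusap1 rose in WT UUO against healthy kidney, so the stretches shown do not stand for a relation between the motif and the direction of change. No test was made of these shares, and a match of letters is not a measured binding site.

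The 50 genes were lowest in healthy kidneys, higher in contralateral kidneys and highest in WT UUO kidneys, with the knockouts between contralateral and WT UUO. The mean of their log2 CPM was 0.01, 0.04 and 0.53 in the healthy libraries (0.19 ± 0.29, SD, n = 3) and 1.62, 1.38 and 1.09 in the contralateral libraries (1.37 ± 0.27). In WT UUO kidneys it was 2.97, 3.28 and 2.85 (3.03 ± 0.22). Twist cKO UUO kidneys had 2.04, 1.83 and 2.17 (2.01 ± 0.17). For Snail cKO UUO it was 1.90, 2.46 and 2.56 (2.31 ± 0.36), and in Myc cKO UUO 2.69, 2.24 and 2.18 (2.37 ± 0.28). Healthy, contralateral and WT UUO libraries did not overlap, and every knockout library lay below every WT UUO library and above every contralateral library. Among the knockouts, Snail overlapped with both Twist and Myc, while the lowest Myc library lay 0.011 above the highest Twist library. Summed over the members, the level was 138 ± 10.5 CPM for healthy, 215 ± 33.6 for contralateral, 616 ± 91.9 for WT UUO, 306 ± 39.3 for Twist, 368 ± 84.7 for Snail and 400.3 ± 83.0 for Myc cKO UUO kidneys (SD, n = 3). No p is given for these summaries, because the members were chosen with results of these data known.

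**Figure D1:**
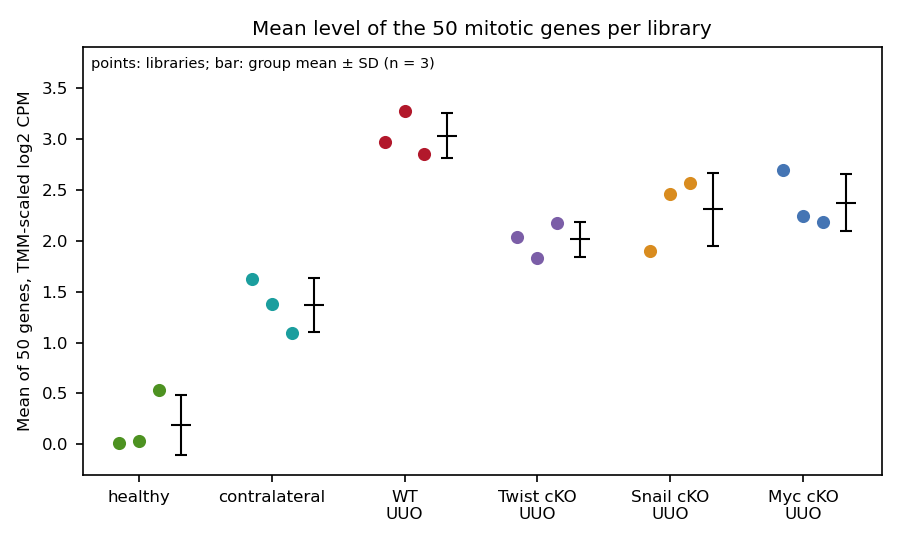
Mean TMM-scaled log2 CPM of the 50 mitotic genes in each of the 18 libraries (points), by group on the horizontal axis, with the group mean and SD (bar, n = 3). The 3 WT UUO libraries lie between 2.85 and 3.28, above all others, and the 3 healthy libraries between 0.01 and 0.53, below all others.

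Within a group the members tended to place the same library high or low. Snail cKO UUO replicate 1 had the lowest level of its group for 48 of the 50 genes, and Myc cKO UUO replicate 1 the highest of its group for 44. WT UUO replicate 2 was highest for 43 genes and lowest for none. Healthy replicate 3 was highest for 31, contralateral replicate 1 for 34, and contralateral replicate 3, the Cre-negative mouse of that group, lowest for 35. The members are therefore not independent of each other within a library, and a count of genes does not count kidneys.

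Per length of exon, the order of the members differed between healthy and obstructed kidneys. In healthy kidneys the highest were Cks2 (14.4 ± 5.45 CPM per kb, SD), Pttg1 (12.1 ± 1.65) and Spc25 (7.47 ± 1.44), ahead of Smc2 (1.69 ± 0.140), and the ranges of Cks2 and Pttg1 overlapped. At the other end stood Cdc25c, the phosphatase that activates Cdk1, with 0.0135 ± 0.00848 CPM per kb, and the checkpoint kinase Ttk with 0.0351 ± 0.0105. In WT UUO the highest were Mki67 (10.5 ± 1.52 CPM per kb), the chromosome coat protein read as Ki-67, and the topoisomerase Top2a (7.41 ± 1.53), followed by Cks2 (6.17 ± 3.10), whose range overlapped with that of Top2a, and Smc2 (5.65 ± 0.433). Cdc25c stayed last at 0.288 ± 0.0434. WT UUO had the highest group mean for 46 of the 50 genes, healthy kidney for 3 and Myc cKO UUO for 1, while healthy kidney had the lowest for 44.

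WT UUO against healthy kidney asks what differs in the obstructed kidney, where 2 of the 3 WT UUO mice also carried Cre and no healthy mouse did. Of the 50 genes 46 rose and 3 fell (edgeR's quasi-likelihood test, Benjamini-Hochberg adjusted p under 0.05), where 56.3% of all genes tested were called, 29.2% higher and 27.1% lower. The median over the members was 3.15 on the log2 scale, against 0.05 over all genes tested. All 46 that rose, and the 3 that fell, did not overlap between the groups, which 32.8% of all genes showed in the higher and 29.7% in the lower direction. The 46 include the 8 members with fewer than 10 reads in a healthy kidney, Cdc25c, Ndc80, Kif2c, Bub1, Ttk, Aurkb, Ccnb1 and Plk1. They passed the filter through kidneys in which they were higher, so their calls here are no separate support for a rise.

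Of the genes that bring the cell into mitosis, 6 of 7 rose. Ccnb1, which encodes cyclin B1 (chromosome 13, 100778650 to 100786570, mm10), was 0.183, 0.266 and 0.202 CPM in healthy and 4.87, 7.27 and 5.1 CPM in WT UUO kidneys. It rose by 4.72 ± 0.33 (log2 ± SE, adjusted p = 5.97e-08), with every WT UUO kidney above every healthy kidney, but had only 9 reads in the lowest healthy library. Cdk1, the kinase it activates, was 0.387, 0.676 and 0.868 CPM in healthy and 11.7, 13 and 9.75 in WT UUO (4.14 ± 0.30, adjusted p = 7.78e-08). Foxm1, a transcription factor that switches on genes of G2 and mitosis, was 0.631, 1.11 and 1.94 in healthy and 7.22, 9.99 and 7.38 CPM in WT UUO (2.73 ± 0.32, adjusted p = 3.72e-06). Its rise was smaller than that of Ccnb1, and the 3 healthy kidneys differed more among themselves. Ccna2, Ccnb2 and Cdc25c rose by 2.65, 3.48 and 4.36. The exception, Cks2, is described further on.

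The spindle pole kinases and the checkpoint genes all rose, 3 of 3 and 4 of 4. Plk1, which matures centrosomes and helps to start mitosis, was 0.224, 0.184 and 0.372 CPM in healthy and 4, 5.39 and 4.62 in WT UUO (4.14 ± 0.33, adjusted p = 1.35e-07). Bub1, a checkpoint kinase at the kinetochore, had the largest change of the 50, 5.04 ± 0.52 (adjusted p = 1.24e-06), from 0.0814, 0.0819 and 0.45 to 6.56, 8.77 and 5.95 CPM. In healthy kidney it rested on few reads, 4 in the lowest library, and replicate 3 was well above the other two. Mad2l1, the checkpoint protein that holds Cdc20, rose least of the 4 checkpoint genes, by 0.99 ± 0.20 (adjusted p = 0.000501), and Ttk by 4.50 ± 0.37.

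At the centromere and kinetochore 8 of 9 genes rose and Spc25 fell. Cenpf, a large kinetochore protein, was 1.63, 1.66 and 2.7 CPM in healthy and 25.2, 27.1 and 25.8 in WT UUO (3.70 ± 0.27, adjusted p = 8.01e-08). Ndc80 and Nuf2, which together form an arm of the complex that grips microtubules, rose by 4.15 ± 0.61 and 3.43 ± 0.37. Spc24, whose protein pairs with Spc25 in the same complex, was 1.75, 1.17 and 1.63 CPM in healthy and 2.42, 4.18 and 2.52 in WT UUO and rose less than Ndc80 and Nuf2 (adjusted p = 0.00913). Cenpk and Cenpn, parts of the inner kinetochore, rose by 1.42 ± 0.40 and 1.19 ± 0.26. All 3 genes of the chromosomal passenger complex, which corrects wrong attachments, rose. Its kinase Aurkb was 0.142, 0.307 and 0.341 CPM in healthy and 4.74, 5.37 and 3.53 in WT UUO (4.09 ± 0.42, adjusted p = 1.24e-06), and Birc5 (survivin) and Cdca8 (borealin) rose by 3.23 and 2.76.

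Among the spindle genes 8 of 9 rose. The microtubule depolymerase gene Kif2c rose by 4.98 ± 0.40 and Dlgap5, a factor that steadies spindle fibres, by 4.69 ± 0.33 (adjusted p = 6.46e-08). Nusap1, which bundles microtubules, was 3.89, 10 and 3.3 CPM in healthy and 10.1, 10.8 and 8.61 in WT UUO, and its difference of 0.78 ± 0.36 did not pass the threshold (adjusted p = 0.0744). Healthy replicate 2 lay within the WT UUO range for this gene. All 6 genes of the central spindle and cytokinesis rose. Anln, the scaffold of the contractile ring, had the smallest p of the members, with 1.81, 1.21 and 2 CPM in healthy and 20.7, 26.4 and 20.2 in WT UUO (3.74 ± 0.25, adjusted p = 4.31e-08), while Ect2, which activates RhoA at the division plane, changed least (0.64 ± 0.25, adjusted p = 0.0359). All 5 chromosome structure genes rose. Mki67 was 5.59, 6.76 and 11.6 CPM in healthy and 101, 123 and 93.7 in WT UUO (3.72 ± 0.31, adjusted p = 2.58e-07), and Top2a was 3.38, 2.64 and 5.86 and 65.6, 81.2 and 53.6 CPM (4.07 ± 0.36). The condensin genes Ncapg and Ncaph rose by 3.10 and 2.87, and their partner Smc2, which serves in both condensins, by 1.74 ± 0.17. Of the mitotic exit genes, Cdc20, the activator of the APC/C, was 0.712, 0.389 and 1.05 CPM in healthy and 5.73, 7.97 and 6.29 in WT UUO (3.20 ± 0.35, adjusted p = 2.18e-06), Ube2c rose by 3.05 and Cdca3 by 2.52, and Pttg1 fell.

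**Figure D2:**
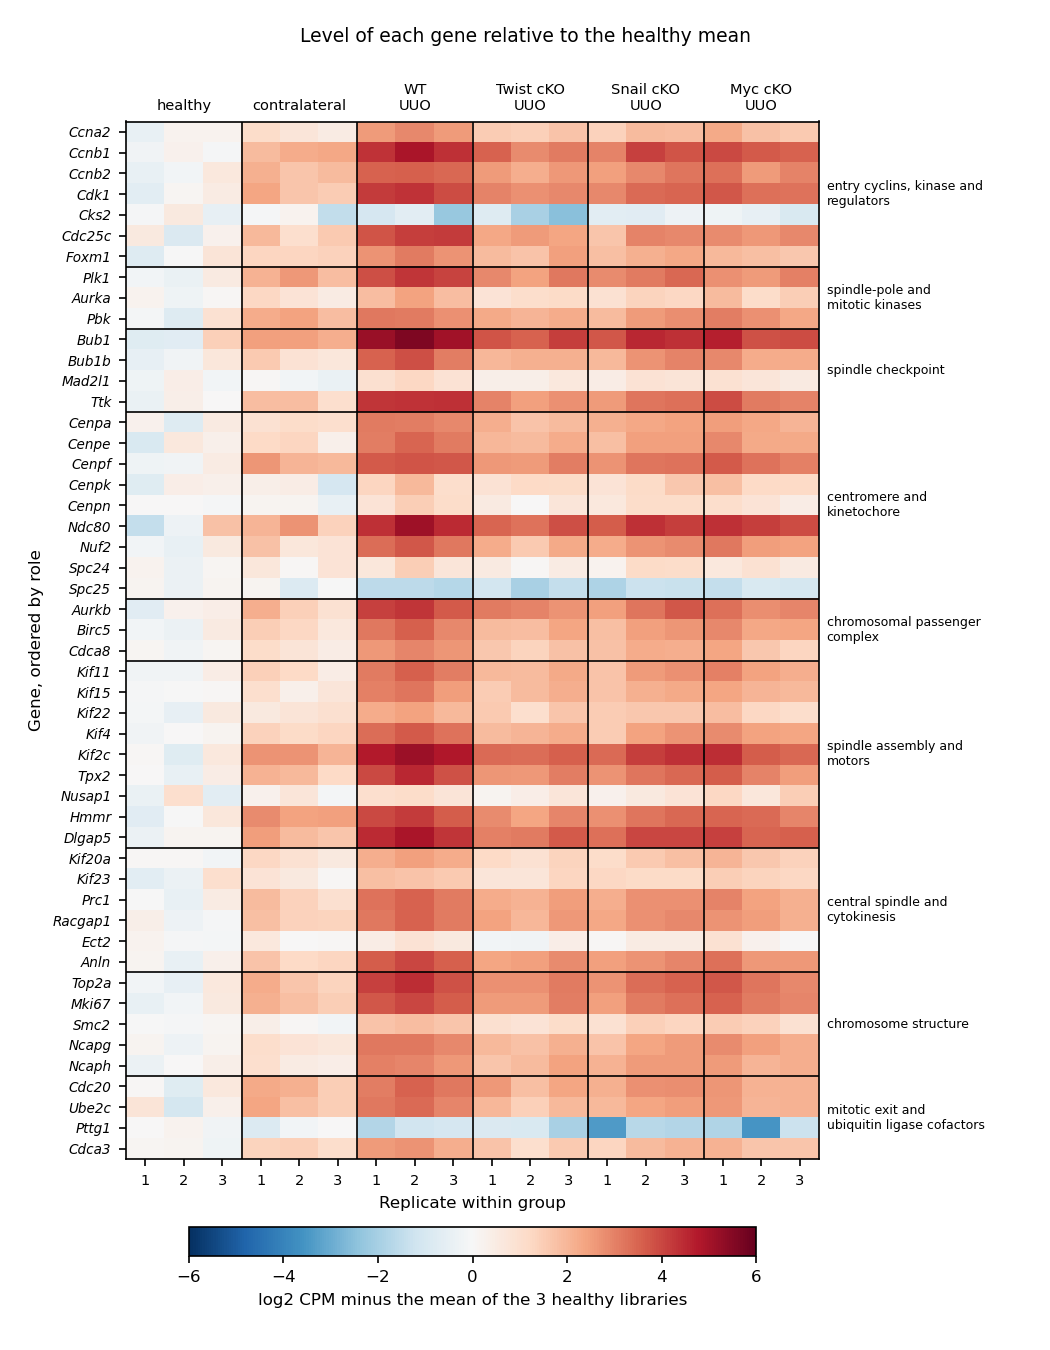
Level of each of the 50 genes (rows, ordered by role) in each library (columns, 3 per group), as log2 CPM minus the mean of the healthy libraries, with red above and blue below that mean. Most rows darken from healthy to contralateral to WT UUO and pale again in the knockouts, while Cks2, Spc25 and Pttg1 are blue in the obstructed kidneys.

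Spc25, Pttg1 and Cks2 went against the other members and fell in WT UUO. Spc25 (chromosome 2, 69193895 to 69206194) had 26.4, 18.5 and 26.5 CPM in healthy kidneys. The contralateral kidneys had 25.9, 13.2 and 23.3 CPM, and WT UUO kidneys 7.8, 7.91 and 7.09. It fell by 1.65 on the log2 scale (-1.65 ± 0.26 as a signed value, adjusted p = 7.6e-05), and the knockouts, between 6.02 and 12.5 CPM, stayed below every healthy kidney. Pttg1, or securin, which restrains separase until anaphase (chromosome 11, 43420250 to 43426251), had 24.3, 27.5 and 20.9 CPM in healthy, 13.5, 21.3 and 24.4 CPM for contralateral and 7, 11 and 12 CPM for WT UUO kidneys (-1.28 ± 0.50, adjusted p = 0.0421). Cks2, a small subunit of cyclin-dependent kinases (chromosome 13, 51645232 to 51650660), had 9.03, 14.1 and 6.78 CPM in healthy kidneys, and 9, 11.1 and 3.36 CPM in contralateral kidneys. In WT UUO it had 4.72, 6.15 and 1.93 CPM (-1.22 ± 0.50, adjusted p = 0.0499). The healthy and WT UUO libraries did not overlap for any of these genes, but the WT UUO kidneys differed among themselves for Pttg1 and Cks2, and WT UUO replicate 3 was highest for Pttg1 and lowest for Cks2. The fall of Spc25 passed the threshold in every alternative run, while those of Pttg1 and Cks2 lay close to it. Pttg1 lost the call when any of the 6 libraries was left out (edgeR adjusted p from 0.0556 to 0.141) and with Cre presence as a term (0.216). Cks2 lost it without healthy replicate 1 or 2 or WT UUO replicate 1 or 3 (edgeR adjusted p up to 0.191) and with RLE factors (0.051). Against contralateral kidneys Spc25 fell again (-1.45 ± 0.26, adjusted p = 0.000247), while Pttg1 (-0.98 ± 0.50, adjusted p = 0.113) and Cks2 (-0.87 ± 0.50, adjusted p = 0.155) did not pass the threshold. Per length these were the highest members in healthy kidney. Which cells or which sequences the reads came from was not tested. Without these genes the mean difference between WT UUO and healthy was 3.11 in place of 2.84.

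**Figure D3:**
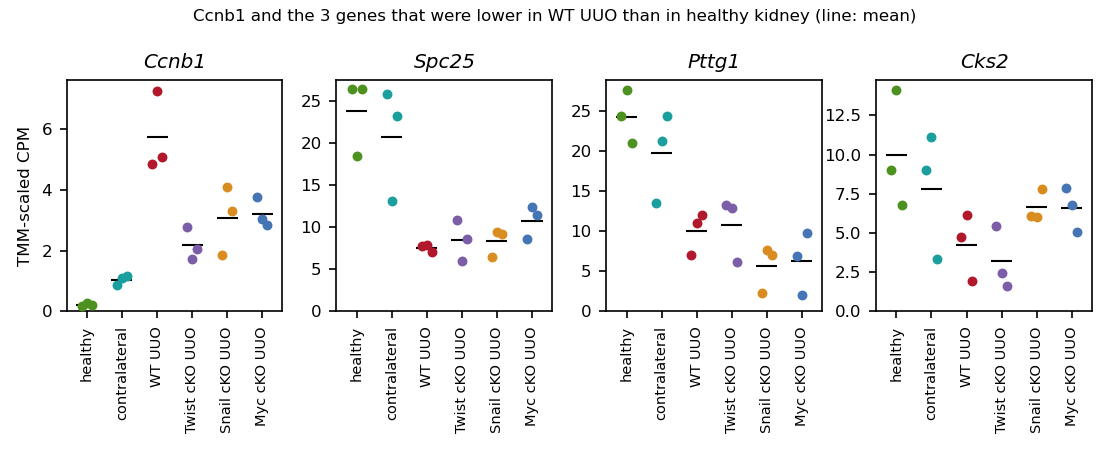
TMM-scaled CPM of Ccnb1, Spc25, Pttg1 and Cks2 in each library (points) with the group mean (line), each panel on its own linear axis from 0. Ccnb1 is lowest in healthy kidney (0.183 to 0.266 CPM), where Spc25, Pttg1 and Cks2 are high, and all WT UUO points of the last 3 genes lie below the healthy points.

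Markers of several other cells moved with the rise in WT UUO, where 29.2% of all genes were called higher and 27.1% lower. All 8 macrophage, 7 fibroblast, 5 injured tubule and 5 urothelial markers rose, with summed levels of 487 to 752 CPM against 67.7 to 99.3 CPM in healthy kidneys for macrophages and 3642 to 7399 against 224 to 327 CPM for fibroblasts. All 7 proximal tubule markers fell, to 627 to 1456 CPM from 10545 to 11854 CPM. All 5 loop and distal tubule markers fell too, to 801 to 1817 CPM from 4094 to 5938 CPM, as did 3 of 4 collecting duct markers (31.6 to 69.7 from 140.2 to 221 CPM) and 3 of 5 erythroid markers (62.3 to 85.3 from 172 to 214 CPM). Of the immune and endothelial lists, 3 of 6 T cell, 3 of 5 B and plasma cell and 3 of 4 neutrophil markers rose. Of 6 endothelial markers 2 rose and 2 fell, close to the shares of all genes. The part of these cells in the rise of the mitotic genes was not tested.

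Contralateral against healthy kidney sets the unobstructed partner kidney beside one without surgery. Here 22 of the 50 genes rose and none fell, where 2.26% of all genes tested were called, 1.96% higher and 0.299% lower, and the median over the members was 1.16 against -0.01 over all genes. Of the 50 genes, 36 did not overlap between the groups in the higher direction, which 12.2% of all genes did. Cenpf, with 12.3, 7.99 and 7.48 CPM in contralateral kidneys, had the smallest p (2.20 ± 0.26, adjusted p = 0.00278), followed by Hmmr, a spindle protein that binds hyaluronan (0.387, 0.614 and 1.04 CPM in healthy, 4.59, 3.53 and 3.61 in contralateral, 2.50 ± 0.31, adjusted p = 0.0029). Plk1 was 1.14, 1.67 and 0.968 CPM in contralateral kidneys (2.25 ± 0.31) and Ccnb1 0.888, 1.1 and 1.16 CPM (2.27 ± 0.32), both with an adjusted p of 0.0057. For all 4 genes every contralateral kidney, the Cre-negative one included, lay above every healthy kidney. Plk1 and Ccnb1 each had only 9 reads in their lowest healthy library.

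By role, genes called higher in contralateral kidney were 3 of 7 entry genes, 2 of 3 spindle pole kinases, 2 of 4 checkpoint genes and 5 of 9 spindle genes. So were 4 of 6 cytokinesis, 3 of 4 mitotic exit and 1 of 9 centromere and kinetochore genes and none of the passenger complex, beside 1.96% of all genes. These counts do not show that roles differed. Of the passenger genes, Birc5 was 0.171 ± 0.0621 CPM per kb (SD) in healthy and 0.379 ± 0.110 in contralateral kidneys, and Cdca8 was 0.129 ± 0.0155 and 0.225 ± 0.0514. Kif2c rose by 2.56 ± 0.39, Dlgap5 by 2.15 ± 0.32, Cdk1 by 1.86 ± 0.29 and Ccnb2 by 1.86 ± 0.29. Cdk1 was 3.28, 1.99 and 1.82 CPM, Cdc20 was 3.3, 2.97 and 1.92 CPM (1.91 ± 0.34, adjusted p = 0.0131), Mki67 was 33.2, 26.4 and 20.9 CPM (1.75 ± 0.29, adjusted p = 0.0103) and Top2a 17.6, 11.8 and 9.37 CPM (1.70 ± 0.33, adjusted p = 0.0199). All of these lay above the healthy range. Aurkb (1.21, 0.706 and 0.492 CPM, 1.59 ± 0.41, adjusted p = 0.0527), Foxm1 (2.78, 2.75 and 2.9 CPM, 1.19 ± 0.31, adjusted p = 0.0561) and Ccna2 (0.76 ± 0.23, adjusted p = 0.0916) did not pass the threshold, although their contralateral libraries also lay above the healthy ones.

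A few members had small differences between contralateral and healthy kidney that did not pass the threshold. Cenpk was 0.366, 0.84 and 0.791 CPM in healthy and 0.82, 0.873 and 0.295 in contralateral kidneys (-0.01 ± 0.41, adjusted p = 0.994), and Cenpn was 1.02, 1 and 0.946 and 1.11, 1.11 and 0.722 CPM (-0.01 ± 0.26, adjusted p = 0.992). Nusap1 (0.14 ± 0.36), Smc2 (0.09 ± 0.16), Mad2l1 (-0.17 ± 0.20) and Spc25 (-0.20 ± 0.25) also had adjusted p-values above 0.7. Their healthy and contralateral libraries overlapped. In WT UUO against the same healthy kidneys, Smc2 differed by 1.74 and Mad2l1 by 0.99.

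**Figure D4:**
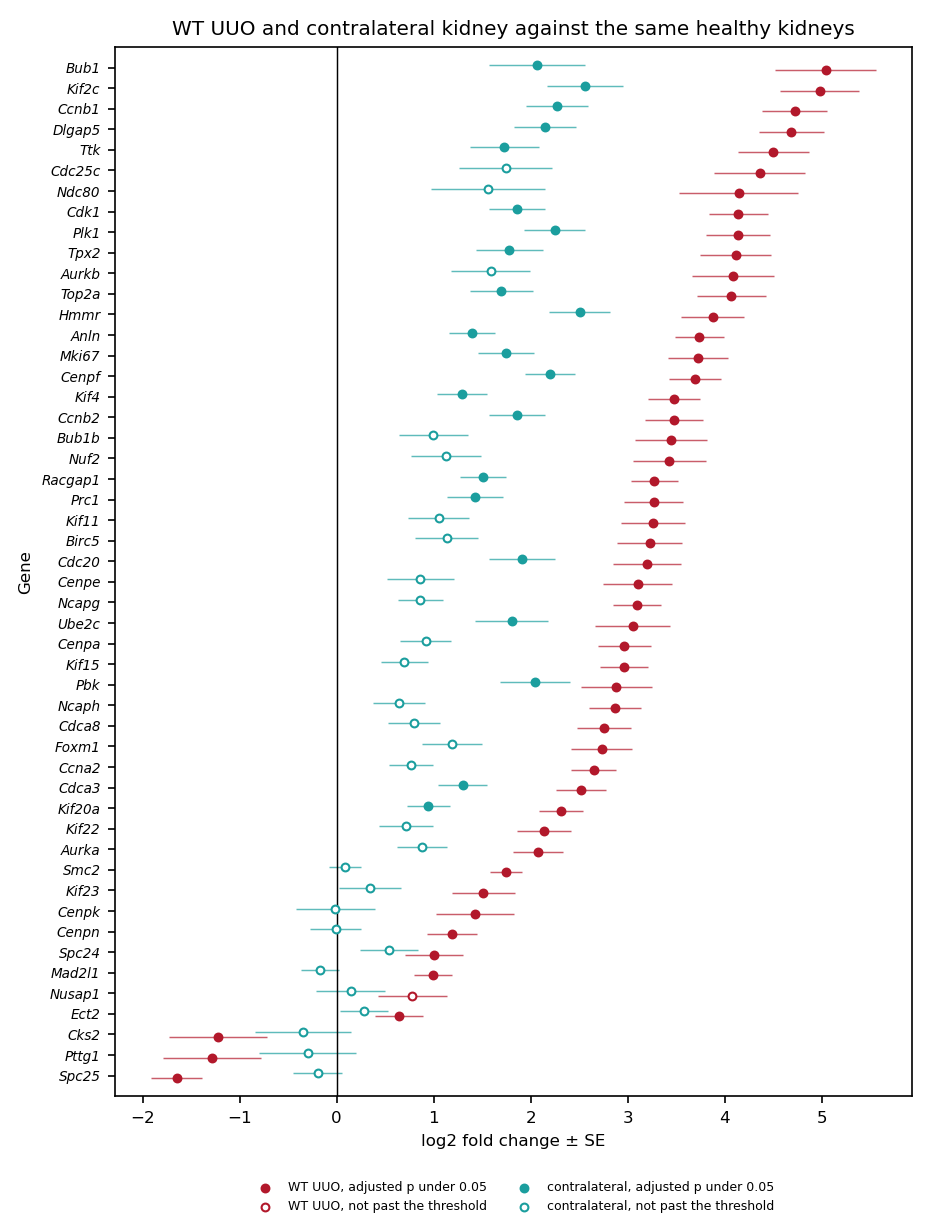
Fitted log2 fold change (horizontal axis, point ± SE) of each gene (vertical axis, ordered by its change in WT UUO) for WT UUO and for contralateral kidney, both against the same 3 healthy kidneys, with filled points for an adjusted p under 0.05. The contralateral points lie to the left of the WT UUO points for 47 genes, and only Spc25, Pttg1 and Cks2 have WT UUO points below 0.

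Macrophage, T cell, B and plasma cell, fibroblast, injured tubule and urothelial markers held no gene called between contralateral and healthy kidney. Their summed levels were 77.9 to 94.0 CPM in contralateral and 67.7 to 99.3 CPM in healthy kidneys for macrophages, and 225 to 355 and 224 to 327 CPM for fibroblasts. Csf3r among 4 neutrophil markers rose, and Emcn and Tek among 6 endothelial markers fell. The count of 22 depended on single libraries, with 7 without healthy replicate 2 and 13 without contralateral replicate 1. Calls over all genes tested went from 413 higher and 63 lower to 38 and 6, and to 126 and 10, in these fits. Healthy replicate 2 held 63.2 CPM of B and plasma cell and 69.4 CPM of injured tubule markers. The other healthy kidneys held at most 5.95 and 22.0 CPM, and the part of these markers in the count was not tested. A fit with Cre presence as a term called 7 genes, limma voom called 10, DESeq2 called 33, and with only the 2 groups in the fit none was called. Over all genes tested, these settings called 64 higher and 11 lower, 205 and 35, 1019 and 310, and 2 and 1 in turn.

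WT UUO against the contralateral kidney gave 44 genes higher and 1 lower, Spc25, where 53.6% of all genes were called (27.5% higher, 26.0% lower), with a median over the members of 1.89 against 0.06 over all genes. The smallest p-values belonged to Smc2 (11.6, 9.7 and 8.2 CPM in contralateral, 30.4, 33.6 and 28.9 in WT UUO, 1.65 ± 0.17, adjusted p = 1.32e-06), Anln (2.34 ± 0.24, 1.32e-06), Ncapg (2.15, 1.78 and 1.66 and 9.26, 9.41 and 7.65 CPM, 2.23 ± 0.23) and the spindle motor gene Kif15 (2.54, 1.56 and 2.1 and 10.4, 12.2 and 7.27 CPM, 2.26 ± 0.24). For Smc2, which had not passed the threshold between contralateral and healthy kidney, both groups had little spread and did not overlap. The members with the largest p were Ect2 (0.36 ± 0.24, adjusted p = 0.225), Spc24 (0.46 ± 0.29, 0.196) and Cks2. All 4 checkpoint, 3 passenger complex and 5 chromosome structure genes rose, with medians of 2.61, 2.09 and 2.23. The median was 1.19 for the spindle pole kinases and 1.23 for the mitotic exit genes. Ube2c, the ubiquitin-conjugating enzyme of the APC/C, rose by 1.25 ± 0.36, and the spindle pole group's kinase gene Pbk by 0.84 ± 0.34. All 8 macrophage and 7 fibroblast markers rose as well, and their part in these rises was not tested.

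Twist cKO UUO against WT UUO asks how the loss of Twist from endothelial cells changed the obstructed kidney. The mitotic genes were lower in the knockout: 32 of 50 fell and none rose, where 5.28% of all genes tested were called, 2.97% higher and 2.31% lower, and the median was -1.10 against -0.01 over all genes. In 46 genes every knockout kidney lay below every WT UUO kidney, which 17.0% of all genes did. Kif4, a chromokinesin of the spindle midzone, was 2.95, 3.29 and 3.74 CPM in Twist cKO UUO and 8.19, 10.3 and 7.7 in WT UUO (-1.39 ± 0.24, adjusted p = 0.0142). Ttk was 1.51, 1.05 and 1.3 and 3.87, 3.94 and 4.03 CPM (-1.62 ± 0.31, adjusted p = 0.0178), and Anln 8.66, 9.2 and 12 CPM (-1.17 ± 0.23, adjusted p = 0.0179). Kif20a, a motor of the central spindle, was 4.73, 3.93 and 5.3 CPM against 9.61, 11.7 and 9.73 (-1.15 ± 0.21, adjusted p = 0.0165). For each of these genes the groups lay well apart and the knockout remained above the healthy kidneys.

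Calls came from every role in the Twist knockout, with 7 of 9 spindle genes, 5 of 7 entry genes, 4 of 5 chromosome structure genes and 4 of 6 cytokinesis genes, and 4 of 9 at the kinetochore. Ccnb1 was 2.78, 1.72 and 2.06 CPM (-1.40 ± 0.28, adjusted p = 0.0193), Cdk1 5.01, 4.31 and 4.75 (-1.29 ± 0.26, 0.0216), Plk1 2.05, 1.46 and 2.5 (-1.22 ± 0.28, 0.0286), Mki67 44.6, 45.4 and 63.5 (-1.05 ± 0.28, 0.045) and Top2a 25.4, 25.5 and 32.5 (-1.26 ± 0.32, 0.0365). For all 5 genes every knockout kidney lay below every WT UUO kidney. Aurkb (2.33, 2.13 and 1.74 CPM, -1.14 ± 0.36, adjusted p = 0.076), Foxm1 (4.21, 3.75 and 6.21, -0.80 ± 0.29, 0.122) and Cdc20 (4.17, 2.4 and 3.52, -0.99 ± 0.32, 0.0805) did not pass the threshold. Pttg1 (13.3, 12.9 and 6.19 CPM, 0.11 ± 0.50, adjusted p = 0.925), Spc25 (10.9, 6.02 and 8.63 CPM, 0.16 ± 0.26, 0.765) and Cks2 (5.48, 2.43 and 1.65 CPM, -0.42 ± 0.50, 0.678) had the largest p and overlapped with WT UUO. Beside these falls, 3 of 8 macrophage, 3 of 7 fibroblast and 2 of 6 endothelial markers fell and 4 of 7 proximal tubule markers rose. Of all genes, 2.31% were called lower and 2.97% higher. Macrophage markers summed to 351 to 420 CPM and fibroblast markers to 1727 to 2092 CPM, and their part in the result was not tested. Leaving out WT UUO replicate 1, or replicate 2 of the knockout, took the count of 32 to 0. Calls over all genes tested went from 625 higher and 486 lower to 7 and 6, and to 16 and 8, in these fits. The count of members was 5 without WT UUO replicate 2, 4 without knockout replicate 1 and 10 without knockout replicate 3. Of all genes, 128, 100 and 74 were then called lower. No member was called in all 6 of these fits, while the mean difference of -1.02 stayed between -1.10 and -0.88.

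Snail cKO UUO against WT UUO gave no mitotic gene past the threshold by edgeR, where 0.299% of all genes were called, 0.162% higher and 0.138% lower. The members were lower all the same in their values, with a median of -0.79 against -0.0046 over all genes. In 40 genes every knockout kidney lay below every WT UUO kidney, as 12.2% of all genes did. DESeq2 called 13 of the 50 and limma voom 8. Over all genes tested, DESeq2 called 428 higher and 359 lower, and limma voom 67 and 115. The smallest p was that of Kif4 (2.28, 4.19 and 5.13 CPM, -1.18 ± 0.24, adjusted p = 0.0559), followed by Anln (9.1, 10.6 and 12.7 CPM, -1.05 ± 0.22, 0.0639), Ttk (1.14, 1.8 and 1.93 CPM, -1.28 ± 0.30, 0.0846) and Ccna2 (6.4, 9.14 and 8.89 CPM, -0.94 ± 0.22, 0.0846). In all 4 genes replicate 1 was the lowest of its group. Ccnb1 was 1.86, 4.09 and 3.32 CPM (-0.90 ± 0.27), Cdk1 4.71, 6.74 and 7.12 (-0.89 ± 0.26), Plk1 1.95, 2.34 and 2.98 (-0.94 ± 0.28), Mki67 41.3, 66.7 and 75.2 (-0.79 ± 0.28), and Top2a 24.2, 38.3 and 43.5 CPM (-0.92 ± 0.31). Aurkb was 1.49, 2.55 and 3.6 CPM, Foxm1 3.96, 4.9 and 5.6 and Cdc20 3.02, 4.61 and 4.77, at -0.84, -0.77 and -0.69 on the log2 scale. Spc24 (1.72, 3.32 and 3.19 CPM, -0.15 ± 0.29), Spc25 (6.52, 9.49 and 9.25 CPM, 0.15 ± 0.26) and Cenpk (1.14, 1.41 and 1.98 CPM, -0.25 ± 0.39) overlapped with WT UUO and had adjusted p-values of 0.865, 0.842 and 0.819. Of the cell type markers 1 proximal tubule gene, Aqp1, was called in this comparison, but several sums did not overlap between the groups. Fibroblast markers summed to 2475 to 3617 CPM in the knockout against 3642 to 7399 in WT UUO, endothelial markers to 272 to 298 against 306 to 430 CPM, neutrophil markers to 10.3 to 14 against 16.0 to 26.2 CPM and erythroid markers to 19.0 to 28.5 against 62.3 to 85.3 CPM. Proximal tubule markers were higher in the knockout, at 1500 to 2365 against 627 to 1456 CPM, while macrophage markers overlapped (375 to 496 against 487 to 752 CPM). Their part in the lower mitotic values was not tested.

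Myc cKO UUO against WT UUO, in which Myc was targeted in tubular epithelium, gave 10 mitotic genes lower and none higher, where 12.2% of all genes were called, 5.31% higher and 6.91% lower. The median over the members was -0.72 against 0.0012 over all genes. In 38 genes every knockout kidney lay below every WT UUO kidney, as 16.6% of all genes did, and in 1, Spc25, above them (8.57, 12.5 and 11.4 CPM, 0.51 ± 0.26, adjusted p = 0.211), as 15.3% did. The 10 were Plk1, Anln, Kif4, Racgap1, Foxm1, Kif15, Cdca8, Ccna2, Cdc25c and Tpx2. Plk1 was 1.83, 1.62 and 2.21 CPM (-1.31 ± 0.28, adjusted p = 0.00987), a range that overlapped with those of the other knockouts. Anln was 16.2, 10.2 and 9.95 CPM (-0.89 ± 0.22, adjusted p = 0.0207), Kif4 5.73, 4.2 and 4.07 (-0.90 ± 0.24, 0.0264) and Racgap1, a GTPase regulator of the central spindle, 7.84, 6.89 and 5.45 against 10.9, 14.1 and 10.6 in WT UUO (-0.82 ± 0.22, 0.0269). Foxm1, at 4.36, 3.93 and 3.45 CPM, fell by 1.07 on the log2 scale (-1.07 ± 0.30 as a signed value, adjusted p = 0.0306).

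Other members of the Myc comparison did not pass the threshold. Ccnb1 was 3.76, 3.05 and 2.84 CPM (-0.84 ± 0.27, adjusted p = 0.0566), Cdk1 8.45, 6.28 and 6.13 (-0.72 ± 0.26, 0.0818), Aurkb 2.68, 1.85 and 2.1 (-1.04 ± 0.36, 0.0714) and Cdc20 4.26, 2.95 and 2.95 (-0.98 ± 0.32, 0.0574). Mki67 was 88.2, 66.8 and 58.6 (-0.57 ± 0.28, 0.196) and Top2a 49.6, 35.1 and 27.8 CPM (-0.83 ± 0.31, 0.0968). In Mki67, Top2a, Cdk1 and Ccnb1 replicate 1 was the highest Myc cKO UUO kidney, below every WT UUO kidney. Cenpk (2.28, 1.49 and 1.48 CPM, -0.04 ± 0.39), Nusap1 (12.2, 8.15 and 14.3 CPM, 0.23 ± 0.35) and Ect2 (12.5, 7.99 and 6.75 CPM, -0.20 ± 0.24) had the largest p, 0.965, 0.718 and 0.647 after adjustment. Of the fibroblast markers 4 of 7 fell, as did 2 of 8 macrophage and 3 of 6 endothelial markers, and 4 of 7 proximal tubule markers rose. Of all genes, 6.91% were called lower and 5.31% higher. Fibroblast markers summed to 666 to 3110 CPM and macrophage markers to 385 to 508 CPM, and their part in the falls was not tested. The count was 1 without WT UUO replicate 1 or 2 or Myc cKO UUO replicate 2 or 3. It was 6 without WT UUO replicate 3 and 19 without Myc cKO UUO replicate 1. With only the 2 groups in the fit it was 0, by DESeq2 27 and by limma voom 28. Calls over all genes tested moved as well, from 1117 higher and 1455 lower. Without WT UUO replicate 1, 2 or 3 they were 288 and 509, 742 and 811, and 815 and 1034. Without Myc cKO UUO replicate 1, 2 or 3 they were 1429 and 1596, 946 and 815, and 311 and 663. They were 1 and 4 with only the 2 groups, 1768 and 2079 by DESeq2 and 1072 and 1804 by limma voom.

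**Figure D5:**
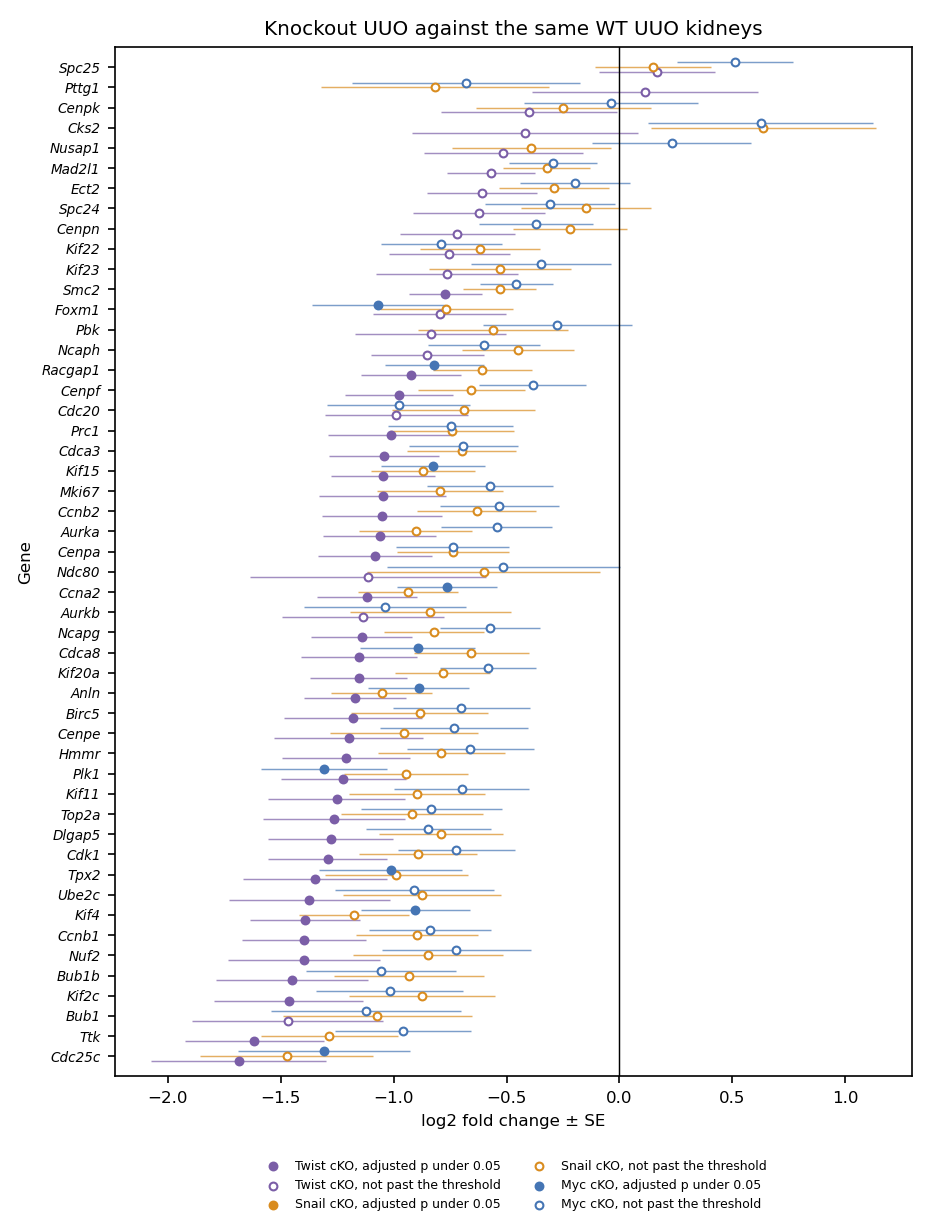
Fitted log2 fold change (horizontal axis, point ± SE) of each gene (vertical axis, ordered by the Twist knockout) in Twist, Snail and Myc cKO UUO kidneys against the same 3 WT UUO kidneys, with filled points for an adjusted p under 0.05. Most points lie between -1.7 and -0.2, 32 Twist and 10 Myc points and no Snail point are filled, and Cks2 and Spc25 lie right of 0 in the Snail and Myc knockouts.

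The knockouts were also set against each other, which tests whether their effects differed. Snail against Twist, Myc against Twist and Myc against Snail each gave no member past the threshold by edgeR, DESeq2 or limma voom, where 0.171%, 2.99% and 2.45% of all genes were called by edgeR. At an unadjusted p under 0.05 the counts were 0, 5 and 0, and the share of all genes at that level is not given here. The medians were 0.32, 0.40 and 0.09, with members between -0.93 and 1.06, -0.79 and 1.04, and -0.36 and 0.62. The smallest adjusted p for Myc against Twist was 0.166, for Kif20a (0.57 ± 0.21), which was 8.64, 6.55 and 5.57 CPM in Myc and 4.73, 3.93 and 5.3 CPM in Twist cKO UUO kidneys without overlap. The larger number of calls in the Twist knockout is therefore no shown difference between the knockouts, and values of this spread do not show that the knockouts act alike.

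Each knockout remained above the contralateral kidney, though not for every role. Against contralateral kidney 29 genes were higher and 1 lower in Twist, 37 higher and 2 lower in Snail and 36 higher and 2 lower in Myc cKO UUO, where 42.9%, 46.4% and 44.5% of all genes were called (21.5%, 23.7% and 22.0% higher, and 21.4%, 22.8% and 22.5% lower). All 4 checkpoint, 3 passenger complex and 5 chromosome structure genes were higher in every knockout. Of the mitotic exit genes none was higher in any of them. Ube2c was 2.46, 1.67 and 1.33 CPM in contralateral, 1.88, 1.28 and 1.86 in Twist, 1.84, 2.48 and 2.75 in Snail and 2.91, 1.95 and 2.04 in Myc cKO UUO kidneys, with differences of -0.12 ± 0.35, 0.37 ± 0.35 and 0.34 ± 0.35 (adjusted p = 0.805, 0.412 and 0.462). Its contralateral and knockout ranges overlapped throughout. Cdc20 (0.30, 0.60 and 0.31) and Cdca3 (0.17, 0.52 and 0.53) had adjusted p-values of at least 0.0926 in all 3 knockouts. Ncaph, in contrast, was 1.86, 1.26 and 1.2 CPM in contralateral kidneys. It was 2.93, 3.38 and 4.94 CPM in Twist, 3.9, 5.47 and 5.48 CPM in Snail and 5.41, 3.78 and 4.21 CPM in Myc cKO UUO kidneys, all above the contralateral range (1.38 ± 0.26, 1.78 ± 0.26 and 1.63 ± 0.26). Spc25 was lower in each knockout (-1.29 ± 0.26, -1.30 ± 0.26 and -0.94 ± 0.26), and Pttg1 in the Snail and Myc knockouts (-1.80 ± 0.51 and -1.66 ± 0.51). The Twist count was 16 without contralateral replicate 3 or Twist cKO UUO replicate 3.

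Other genes of the cell cycle were read from the same fit, in which 29.2% of all genes were called higher and 27.1% lower in WT UUO against healthy kidney. Of 20 genes of S phase, 16 rose in WT UUO against healthy kidney (median 1.47). The helicase genes Mcm3, Mcm2 and Mcm5 rose by 2.90, 1.58 and 2.60, Uhrf1, which keeps DNA methylation at the fork, by 4.32 ± 0.39, and the clamp gene Pcna by 0.40 ± 0.15 (adjusted p = 0.0299). In contralateral kidneys Mcm2 (0.67 ± 0.13), Mcm5 (0.96 ± 0.23) and Uhrf1 (1.61 ± 0.37) rose, 3 of 20 genes with a median of 0.33, where 1.96% of all genes were called higher. In the Twist knockout Pcna (-0.63 ± 0.15), Rrm1 (-0.77 ± 0.18), Rrm2 (-0.71 ± 0.19) and Mcm3 (-0.73 ± 0.20) fell against WT UUO, where 2.31% of all genes were called lower. In the Myc knockout 5 genes led by Mcm2 (-0.71 ± 0.13) and Mcm3 (-0.97 ± 0.20) fell, where 6.91% of all genes were called lower.

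Of the 12 genes of G1, 9 rose and 2 fell in WT UUO against healthy kidney, beside 29.2% and 27.1% of all genes. Ccne1, the cyclin of the G1 to S transition, rose by 3.11 ± 0.39 and Cdk4 by 0.77 ± 0.08, while Ccnd1, cyclin D1, fell by 1.08 on the log2 scale (185, 146 and 124 CPM in healthy, 58.5, 81 and 75.4 in WT UUO, adjusted p = 0.00012) and Rb1 by 0.46. Ccnd1 rose in the Twist knockout (0.70 ± 0.18, adjusted p = 0.0402), where Cdk4 fell (-0.31 ± 0.08). Of 11 inhibitors and arrest genes tested 7 rose, beside the same 29.2%, among them Cdkn1a, or p21 (2.70 ± 0.43), Cdkn2b (3.50 ± 0.32) and Trp53 (1.66 ± 0.13). None was called in contralateral kidneys, where Cdkn1a differed by 0.31 ± 0.42. In the Myc knockout Cdkn2b (-1.69 ± 0.29), Trp53 (-0.68 ± 0.13) and Gadd45b (-1.02 ± 0.22) fell, beside Cdk4 (-0.34 ± 0.08).

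Among 11 genes of the DREAM and MuvB complexes, which bind the CHR motif, 4 rose and 4 fell in WT UUO, shares close to the 29.2% and 27.1% of all genes. Mybl2, the activator that joins MuvB in S phase, rose by 1.35 ± 0.23 and Tfdp1 by 0.73 ± 0.12, while Lin52 fell by 1.42 and the repressor subunit gene Rbl2 by 0.87. None of the 11 was called in contralateral, Twist or Snail kidneys, and in the Myc knockout Tfdp1 (-0.49 ± 0.12) and E2f4 (-0.40 ± 0.10) fell and Lin52 (0.55 ± 0.16) rose. Of 17 APC/C genes 4 rose and 2 fell in WT UUO, no more than those shares of all genes, with the largest difference a fall, of Anapc13 (-1.59 ± 0.15). None was called in contralateral, Twist or Snail kidneys, and Fzr1 (-0.45 ± 0.11) fell in the Myc knockout. Among 16 other kinetochore genes 10 rose and none fell in WT UUO (29.2% and 27.1% of all genes), among them Cenpi (3.96 ± 0.34) and the scaffold gene Casc5 (3.40 ± 0.25), and Casc5 also rose in contralateral kidneys (1.45 ± 0.24, adjusted p = 0.0102) and fell in the Twist knockout (-1.04 ± 0.23) with Cenpi (-1.12 ± 0.29). In the Snail knockout none of the genes of these 6 lists was called by edgeR.

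Some members share exons with a neighbour on the opposite strand, which matters because the files and labels do not state whether the counting used strand. The share of exon bases was 29.3% for Kif20a (with Cdc23), 22.8% for Ube2c (Tnnc2), 15.1% for Kif4 (Pdzd11), 13.4% for Ncapg (Lcorl), 12.7% for Cdc25c (Gm3550), 12.5% for Ccna2 (Exosc9) and 11.1% for Prc1 (Rccd1). Ccnb1, Ccnb2, Kif22 and Kif4 have an annotated pseudogene copy named after them that could take or lend reads. The values of these genes are uncertain to that extent. Copies under other names were not looked for in any member.

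Sex differed among the kidneys of each group. Read from Ddx3y against Xist, 8 libraries were male and 10 female, with 1 or 2 males in each group, and the test of sex was added after seeing the data. With the groups in the fit no member was called between males and females by edgeR, the tool run for this, where 4.35% of all genes were called, and 2 members had an unadjusted p under 0.05. Spc25 differed by -0.43 ± 0.12 (log2 ± SE, male minus female, adjusted p = 0.0581), and Nusap1 by 0.50 ± 0.18 (adjusted p = 0.136). The male healthy kidney, replicate 2, had the lowest Spc25 and the highest Nusap1 of its group, as had the male contralateral kidney, also replicate 2.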

How the data were processed

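RNA was extracted with TRIzol and stranded libraries were sequenced as paired reads, per the labels' protocols. The authors deposited raw counts per gene symbol, used here, and a table of normalized values, not used here. The submitters' processing notes name bcl2fastq 1.8.4, HTSeq, DESeq2 and mm10, and for aligner, annotation and strand setting the entry is: not given in the sources used here. Of the columns with counts, 6 matched no sample and entered no step. Columns were matched to samples by name and replicates numbered within a group by accession.

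The test was edgeR 4.0.16 (R 4.3.3) after filterByExpr by group and TMM scaling. Its robust quasi-likelihood model took all 18 libraries, a mean for each of the 6 groups, and so left 12 residual degrees of freedom. P-values are two-sided and Benjamini-Hochberg adjusted over the 21050 genes tested, and a gene was called at an adjusted p under 0.05. The module mean averaged log2 CPM (prior count 2) over the members. The members, lists and alternatives were chosen with earlier results of these data known. Values in every library were given by rule for Mki67, Top2a, Ccnb1, Cdk1, Plk1, Aurkb, Foxm1 and Cdc20 and, in the comparisons with healthy, contralateral (for WT UUO) and WT UUO kidneys, the members with the 4 smallest and the 3 largest p. Other members were named after their values were seen. Of the other lists up to 3 genes with the smallest p were named, with Ccnd1, Cdkn1a, Pcna, Mcm5 and Mybl2, and further genes after their values were seen. A result for 1 gene of these lists is not reported here. Exon lengths and positions came from GENCODE M21. Casc5, Mlf1ip, Emr1 and Igj stand for Knl1, Cenpu, Adgre1 and Jchain through RefSeq synonyms. Alternatives were DESeq2 1.42.0, limma voom (limma 3.58.1), RLE factors, other count filters, removal of mitochondrially encoded genes, Cre presence or sex as a covariate, the 2 groups alone, and each library left out. Replicates of a group differed beyond sampling noise. On simulated data for contralateral against healthy (20756 genes), 52% of 2-fold and 85% of 4-fold changes were recovered, and for Twist cKO UUO against WT UUO (20768 genes) 63% and 78%.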

Additional observations from a re-analysis of the deposited data

How the results depend on the processing

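No paired analysis was possible because the labels give no replicate numbers that groups share and tie no kidneys to an animal. Contralateral and WT UUO kidneys hold the same mix of Cre, floxed alleles and sex, and fits with Cre presence or sex as a covariate were run in place of a block. Members called with each library left out in turn ranged from 46 to 47 for WT UUO against healthy, 7 to 30 for contralateral against healthy, 44 to 45 for WT UUO against contralateral, 0 to 27 for Twist, 0 to 0 for Snail and 1 to 19 for Myc cKO UUO against WT UUO, and 16 to 30, 33 to 40 and 33 to 38 for these knockouts against contralateral. For contralateral against healthy, limma voom gave 10, Cre presence as a covariate 7 and the 2 groups alone 0, in place of 22. For Snail cKO UUO against WT UUO, DESeq2 gave 13, limma voom 8 and sex as a covariate 1, in place of 0. For Myc cKO UUO against WT UUO, DESeq2 gave 27, limma voom 28 and the 2 groups alone 0, in place of 10. The calls over all genes changed in these settings too. With the 2 groups alone they were 2 higher and 1 lower for contralateral against healthy. For Myc cKO UUO against WT UUO they were 1 and 4. The causes were not tested. Of 180 counts of members under alternatives 156 were within 1.5 times the reported count. Of 132 mean differences of the module under alternatives, those for Myc against Snail cKO UUO crossed 0 (-0.13 to 0.21 with a library left out), and 1 moved beyond the spread of replicates, 3.11 for WT UUO against healthy without Spc25, Pttg1 and Cks2, a choice made after seeing the data. All 50 genes kept their sign in every alternative for WT UUO against healthy and against contralateral, and 44 of 49 and 44 of 45 called genes stayed called in all of them. For contralateral against healthy none of 22, for Twist none of 32 and for Myc none of 10 stayed called in every alternative.

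None of the 93 called results of single named genes changed sign. With 1 library left out, values that had not been called crossed 0 in contralateral against healthy for Cenpk (-0.30 to 0.34), Cenpn (-0.11 to 0.17), Mad2l1 (-0.30 to 0.069), Nusap1 (-0.14 to 0.82) and Smc2 (-0.045 to 0.21), in Twist for Pttg1 (-0.076 to 0.41) and Spc25 (-0.047 to 0.36), in Snail for Cenpk (-0.49 to 0.059) and Spc24 (-0.30 to 0.16), and in Myc for Cenpk (-0.27 to 0.28). For Ube2c in Twist cKO UUO against contralateral the range was -0.31 to 0.15. With Cre presence as a covariate Nusap1 was -0.18 and Smc2 -0.090 in contralateral against healthy. Depth limits the genes with few reads in healthy kidneys, such as Cdc25c, Ndc80, Bub1 and Kif2c.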
